A study of Mus musculus with 6 samples.

Results

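Receptors through which leukocytes sense bacterial, complement and lipid signals were described across the cells of inflamed mouse synovium, 9 genes in all: Fpr1, Fpr2, C5ar1, C5ar2, C3ar1, Ptafr, Ltb4r1, Cmklr1 and Hcar2. They were chosen by symbol, and all 9 are among the 20394 genes of the table. CD45-positive cells had been sorted from the digested synovium of C57BL/6 mice (male, bought at 8 weeks of age), and transcripts were counted cell by cell from their 3′ ends. All mice carried antigen-induced arthritis (AIA): 10 μg of methylated BSA in complete Freund's adjuvant under the skin, then 100 μg of methylated BSA into the knee on day 21. From that day 2 samples received the vehicle PBS and 4 received 300 μg of PEPITEM, a peptide derived from a 14-3-3 protein, by intraperitoneal injection. The cells carry a library number from 1 to 6, which no source used here ties to a sample, so vehicle and PEPITEM were not compared, and the libraries are given as 6 libraries of unknown treatment that are not replicates of a group.

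All 9 genes encode receptors with 7 membrane-spanning segments, and most of them signal through inhibitory G proteins. Fpr1 and Fpr2 bind formylated peptides, which bacteria and damaged mitochondria release, and Fpr2 also binds annexin A1 and serum amyloid A. C5ar1 and C3ar1 are the receptors of the anaphylatoxins C5a and C3a, the small fragments cut from complement proteins, and C5ar2 binds C5a without coupling to G proteins. Ptafr binds platelet-activating factor, Ltb4r1 is the high-affinity receptor of leukotriene B4, Cmklr1 is the receptor of chemerin, and Hcar2 binds the ketone body β-hydroxybutyrate and nicotinic acid. Several of them guide neutrophils and monocytes into the inflamed joint.

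In GRCm38, with the coordinates of GENCODE vM21, Fpr1 (chr17:17876471-17883940, minus strand) and Fpr2 (chr17:17887824-17893952, plus strand) lie head to head, with 3884 bases between their starts. C5ar1 (chr7:16246743-16259540) and C5ar2 (chr7:16234585-16244154) follow each other on the minus strand, 2588 bases apart. Ltb4r1 (chr14:55765962-55768494) lies 823 bases from Ltb4r2, the low-affinity leukotriene B4 receptor, on the same strand. The remaining members are C3ar1 at chr6:122847138-122856161, Ptafr at chr4:132564067-132582683, Cmklr1 at chr5:113612354-113650426 and Hcar2 at chr5:123863570-123865499. A promoter sequence was found in RefSeq (GRCm38.p6) for 8 of the 9 members. The 250 bases before the start are shown for the head-to-head pair, Fpr1 (chr17:17883940-17884189, minus strand) and Fpr2 (chr17:17887574-17887823, plus strand). They are also shown for C3ar1 (chr6:122856158-122856407, minus strand), which was highest in macrophages. The last window is that of Ltb4r1 (chr14:55765712-55765961, plus strand), which was highest in immature neutrophils. Each is printed 5′ to 3′ in the direction of its gene, and capitals mark a match, on either strand, to GAGGAA, the core bound by the myeloid factor PU.1 (TTCCTC where it lies on the other strand), or to TGANTCA, the AP-1 motif.
Fpr1: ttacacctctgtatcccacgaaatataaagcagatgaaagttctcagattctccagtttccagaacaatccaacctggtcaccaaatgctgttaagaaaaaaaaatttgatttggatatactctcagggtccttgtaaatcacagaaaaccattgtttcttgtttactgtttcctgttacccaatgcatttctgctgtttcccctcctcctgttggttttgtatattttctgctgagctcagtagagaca
Fpr2: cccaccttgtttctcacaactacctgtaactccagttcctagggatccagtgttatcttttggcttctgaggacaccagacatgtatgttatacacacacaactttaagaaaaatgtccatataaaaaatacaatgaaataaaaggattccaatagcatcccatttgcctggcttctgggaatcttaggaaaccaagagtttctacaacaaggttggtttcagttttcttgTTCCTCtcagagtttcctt
C3ar1: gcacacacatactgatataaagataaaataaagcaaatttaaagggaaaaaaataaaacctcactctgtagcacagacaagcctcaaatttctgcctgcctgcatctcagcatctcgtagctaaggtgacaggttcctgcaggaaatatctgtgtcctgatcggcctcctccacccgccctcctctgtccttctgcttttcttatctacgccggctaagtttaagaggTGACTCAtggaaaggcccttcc
Ltb4r1: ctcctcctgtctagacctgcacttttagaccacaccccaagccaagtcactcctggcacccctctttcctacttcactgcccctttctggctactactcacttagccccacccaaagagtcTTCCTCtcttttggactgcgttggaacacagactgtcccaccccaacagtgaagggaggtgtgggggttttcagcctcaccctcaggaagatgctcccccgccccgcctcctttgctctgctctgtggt
The Fpr2 window held GAGGAA 13 bases before the start, and the Ltb4r1 window 123 bases before it, both on the other strand. The Fpr1 window held neither motif although it faces that of Fpr2. The C3ar1 window held TGACTCA 15 bases before the start. Of all 32851 promoter windows of this length, 23.3% held GAGGAA and 6.75% held TGANTCA, against 5 and 1 of the 9 windows of the members, 1 of which is a second start of C5ar2. These matches are letters in a window and were not tied to binding.

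The table held 32953 cells, with 47273569 to 123367661 unique molecular identifiers (UMIs, tags of single RNA molecules) per library and a median of 9923 to 14001 UMIs per cell. Cells were gated by markers into 19 classes, written with "-like" because markers, not the study, named them, and each class was kept only where a clustering that left out the 9 receptors named the same lineage. The classes held 25703 cells (78.0%), and 7250 cells (22.0%) reached none. Ptprc, which encodes CD45, was detected in 95.8% of all cells, in 21.8% of 142 fibroblast-like cells and in 69.7% of 188 mast cell-like cells. Immature neutrophil-like cells (4899), granulocyte precursor-like cells (1090) and stem and progenitor-like cells (328), stages that belong to marrow, were in the sort as well. Of all barcodes, 138 were found in a pair of libraries each, which is 276 cells. Levels are UMIs of a gene per 1000000 UMIs of a class (CPM), pooled over its cells, with the lowest and the highest library. Transcripts of 7 neutrophil genes (Ly6g, Ngp, Camp, Ltf, Retnlg, Cxcr2 and Mmp8) were counted in every class, from 314 CPM in T cell-like to 17718 CPM in nonclassical monocyte-like cells outside the granulocytes, so levels outside neutrophils that a result rests on are given again for the cells without any UMI of the 7 genes, called neutrophil gene-free cells. Levels compare 1 gene between classes, since capture differs between genes. A lower level in a class cannot be told apart from more RNA of other genes per cell.

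Mature neutrophil-like cells had the highest level of 6 of the 9 receptors: Fpr1, Fpr2, C5ar1, C5ar2, Ptafr and Hcar2, where 5.92% of 12556 genes were highest. Immature neutrophil-like cells led for Ltb4r1 (2.10% of all genes), and the 2 macrophage-like classes for C3ar1 and Cmklr1 (8.71% of all genes). Together the 9 receptors made up 1899 CPM in mature neutrophil-like cells, 1314 CPM in resident and 1313 CPM in inflammatory macrophage-like cells, 951 CPM in immature neutrophil-like cells and 32.7 CPM in B cell-like cells.

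**Figure D1:**
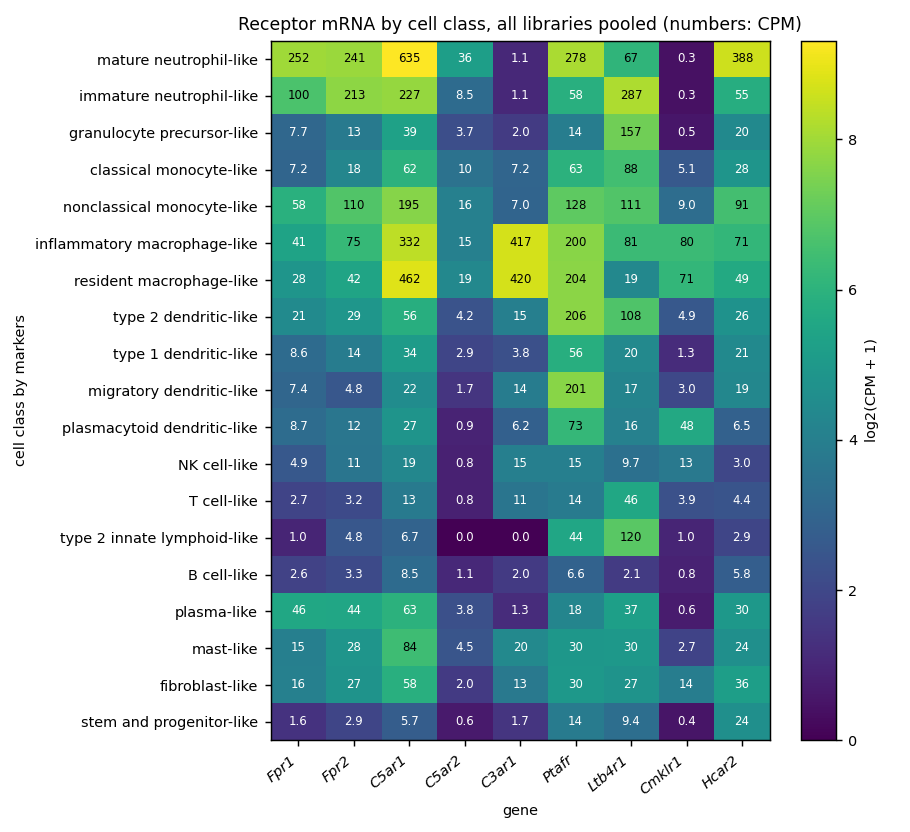
Heat map of the level of each receptor (columns) in the 19 cell classes (rows). Color is log2(CPM + 1), and the printed numbers are CPM pooled over the 6 libraries. The highest cells of 6 columns lie in the row of mature neutrophil-like cells, and C3ar1 stands out in the rows of resident and inflammatory macrophage-like cells (420.0 and 417 CPM).

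Fpr1 was counted in mature neutrophil-like cells at 224, 286, 194, 263, 257 and 236 CPM in libraries 1 to 6, and at 252 CPM in all. In immature neutrophil-like cells the 6 libraries had 125, 136, 97.1, 74.2, 101 and 85.8 CPM. No library of the immature class reached any library of the mature class, and the ratio within a library was 1.79 to 3.55. Of the mature cells, 53.4% had at least 1 UMI. At 2000 UMIs drawn from each cell the share was 32.9% (exact 95% interval 31.5% to 34.2%, which covers counting error only, as do all intervals here), against 17.9% of immature neutrophil-like cells. The same share was 0.224% in B cell-like and 0.375% in T cell-like cells, which should lack the receptor. The median depth before thinning was 4741.5 UMIs in mature neutrophil-like, 13821 in immature neutrophil-like, 5774 in B cell-like and 9404 in T cell-like cells.

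Fpr2, its neighbor, was almost as high in immature as in mature neutrophil-like cells. The mature class held 255, 276, 277, 222, 235 and 233 CPM in libraries 1 to 6, and the immature class 198, 216, 266, 191, 202 and 235 CPM. The ranges overlapped, and the ratio within a library was 0.99 to 1.28, with the mature class higher in 5 of 6 libraries. At 2000 UMIs, 34.5% of mature and 36.7% of immature neutrophil-like cells had a UMI of Fpr2, against 0.448% of B cell-like cells. Fpr1 and Fpr2 thus parted at the immature stage, although they start next to each other. Of the 50-base stretches in the last 1000 bases of Fpr2 transcripts, 27.7% also occur in Gm5966, Fpr3 or Fpr1, so reads of Fpr2 may have been lost or split. Fpr3, which overlaps Fpr2 by 48 exon bases on the same strand, had at most 5.40 CPM in any class.

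C5ar1 had a UMI in 90.6% of mature neutrophil-like cells, and in 68.6% at 2000 UMIs against 0.840% of B cell-like cells. Libraries 1 to 6 had 703, 686, 680, 724, 619 and 554 CPM. Resident macrophage-like cells followed at 462 CPM (405 to 481), inflammatory macrophage-like cells at 332 CPM (296 to 359) and immature neutrophil-like cells at 227 CPM (210 to 262), and none of these 4 ranges overlapped the next. Nonclassical monocyte-like cells were at 195 CPM (150 to 221) and classical monocyte-like cells at 61.6 CPM. In neutrophil gene-free cells C5ar1 was at 434 CPM in resident and 284 CPM in inflammatory macrophage-like cells. It was at 124 CPM in nonclassical and 32.2 CPM in classical monocyte-like cells there. Mast cell-like cells, listed at 84.1 CPM, were at 1.51 CPM in their 115 neutrophil gene-free cells.

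C5ar2, the second receptor of C5a, was also highest in mature neutrophil-like cells, at a low count. Mature neutrophil-like cells had 40.1, 34.9, 39.6, 41.2, 33.9 and 36.1 CPM in libraries 1 to 6. The immature class was at 8.52 CPM (6.91 to 10.4), and the ratio within a library was 3.76 to 5.97. Resident macrophage-like cells were at 19.1 CPM (10.5 to 21.6) and inflammatory macrophage-like cells at 15.5 CPM (12.6 to 17.2), with overlapping ranges. The share with a UMI at 2000 UMIs was 7.44% in mature neutrophil-like cells and 0.187% in B cell-like cells. Of the 50-base stretches at the end of its transcripts, 14.1% occur in other genes.

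C3ar1, the receptor of C3a, was a macrophage transcript in these cells. Resident macrophage-like cells had 435, 395, 468, 378, 444 and 402 CPM in libraries 1 to 6, and inflammatory macrophage-like cells 542, 343, 443, 354, 379 and 365 CPM. The ranges of these 2 classes overlapped, and the pooled levels were 420.0 and 417 CPM. The next class, mast cell-like cells, was at 19.7 CPM, 21.2-fold lower than inflammatory macrophage-like cells. A basophil-like cluster of 52 cells, outside the 19 classes, was at 88.4 CPM. In its 17 neutrophil gene-free cells C3ar1 was at 205 CPM. Mature and immature neutrophil-like cells were at 1.09 and 1.13 CPM, with 6.18 and 9.44 CPM in their highest library. Classical monocyte-like cells were at 7.25 CPM, 57.5-fold lower than inflammatory macrophage-like cells. At 2000 UMIs, 53.9% of resident and 55.1% of inflammatory macrophage-like cells had a UMI, against 0.187% of B cell-like and 0.657% of T cell-like cells. Unlike the neutrophil receptors, C3ar1 was higher in the neutrophil gene-free cells, at 462 CPM in resident and 506 CPM in inflammatory macrophage-like cells.

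Ptafr, the receptor of platelet-activating factor, was at 200.3 CPM or more in 5 classes. Mature neutrophil-like cells had 474, 389, 438, 249, 248 and 196 CPM in libraries 1 to 6. Libraries 1 to 3 lay above libraries 4 to 6, and the immature class showed the same split, with 89.3, 83.3 and 117 CPM in libraries 1 to 3 and 44.0, 55.6 and 44.9 CPM in libraries 4 to 6. The pooled levels were 278 and 58.1 CPM, and the ratio within a library was 3.75 to 5.66. Type 2 dendritic-like cells (206 CPM), resident macrophage-like cells (204), migratory dendritic-like cells (200.5) and inflammatory macrophage-like cells (200.3) followed, and the libraries of each overlapped those of the next. In neutrophil gene-free cells these 4 classes had 185, 168, 179 and 167 CPM. Plasmacytoid dendritic-like cells were at 73.4 CPM and B cell-like cells at 6.61 CPM.

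Hcar2 showed the strongest separation of the 2 neutrophil classes. The mature class had 686, 454, 636, 405, 313 and 318 CPM in libraries 1 to 6 and 388 CPM in all. The immature class had 86.0, 86.1, 109, 32.3, 51.8 and 44.1 CPM and 55.3 CPM in all. The ratio within a library was 5.28 to 12.5, the largest of the 9 receptors, and libraries 1 to 3 again lay above libraries 4 to 6 in both classes. At 2000 UMIs, 41.3% of mature and 9.49% of immature neutrophil-like cells had a UMI, against 0.542% of B cell-like cells. Inflammatory and resident macrophage-like cells had 70.5 and 49.1 CPM, which became 12.7 and 7.47 CPM in neutrophil gene-free cells. Nonclassical monocyte-like cells had 91.1 CPM (13.6 to 151), and 21.5 CPM in their neutrophil gene-free cells.

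Ltb4r1 ran the other way. Immature neutrophil-like cells were at 287 CPM (269 to 301) and mature neutrophil-like cells at 66.6 CPM (54.5 to 77.4), and the mature class was at 0.20 to 0.27 of the immature class within a library. Granulocyte precursor-like cells already had 157 CPM (149 to 179), and 78.1 CPM in their 404 neutrophil gene-free cells. At 2000 UMIs, 43.2% of immature, 24.7% of precursor-like and 11.5% of mature cells had a UMI, against 0.261% of B cell-like cells. Outside the granulocytes Ltb4r1 was counted in type 2 innate lymphoid-like cells at 120.3 CPM (78.6 to 184) and nonclassical monocyte-like cells at 110.6 CPM (47.0 to 154). Type 2 dendritic-like cells were at 108 CPM, classical monocyte-like cells at 88.0 CPM and inflammatory macrophage-like cells at 81.5 CPM. In neutrophil gene-free cells these classes had, in the same order, 119, 74.3, 93.4, 79.1 and 82.6 CPM. Resident macrophage-like cells were at 19.2 CPM, and at 5.54 CPM in neutrophil gene-free cells.

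Cmklr1, the receptor of chemerin, was highest in inflammatory macrophage-like cells at 79.6 CPM (47.7 to 92.9) and in resident macrophage-like cells at 71.1 CPM (55.6 to 79.3), with overlapping ranges, and with classes taken from clusters the resident class was the higher. Plasmacytoid dendritic-like cells, which are known to carry the receptor, followed at 48.4 CPM (28.4 to 76.6), and natural killer cell-like cells were at 12.7 CPM. Both neutrophil classes were below 1 CPM, at 0.32 and 0.35. At 2000 UMIs, 13.2% of inflammatory macrophage-like, 13.4% of resident macrophage-like and 8.95% of plasmacytoid dendritic-like cells had a UMI, against 0.0560% of B cell-like cells. The values in neutrophil gene-free cells were 92.3, 76.9 and 52.7 CPM in these 3 classes.

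**Figure D2:**
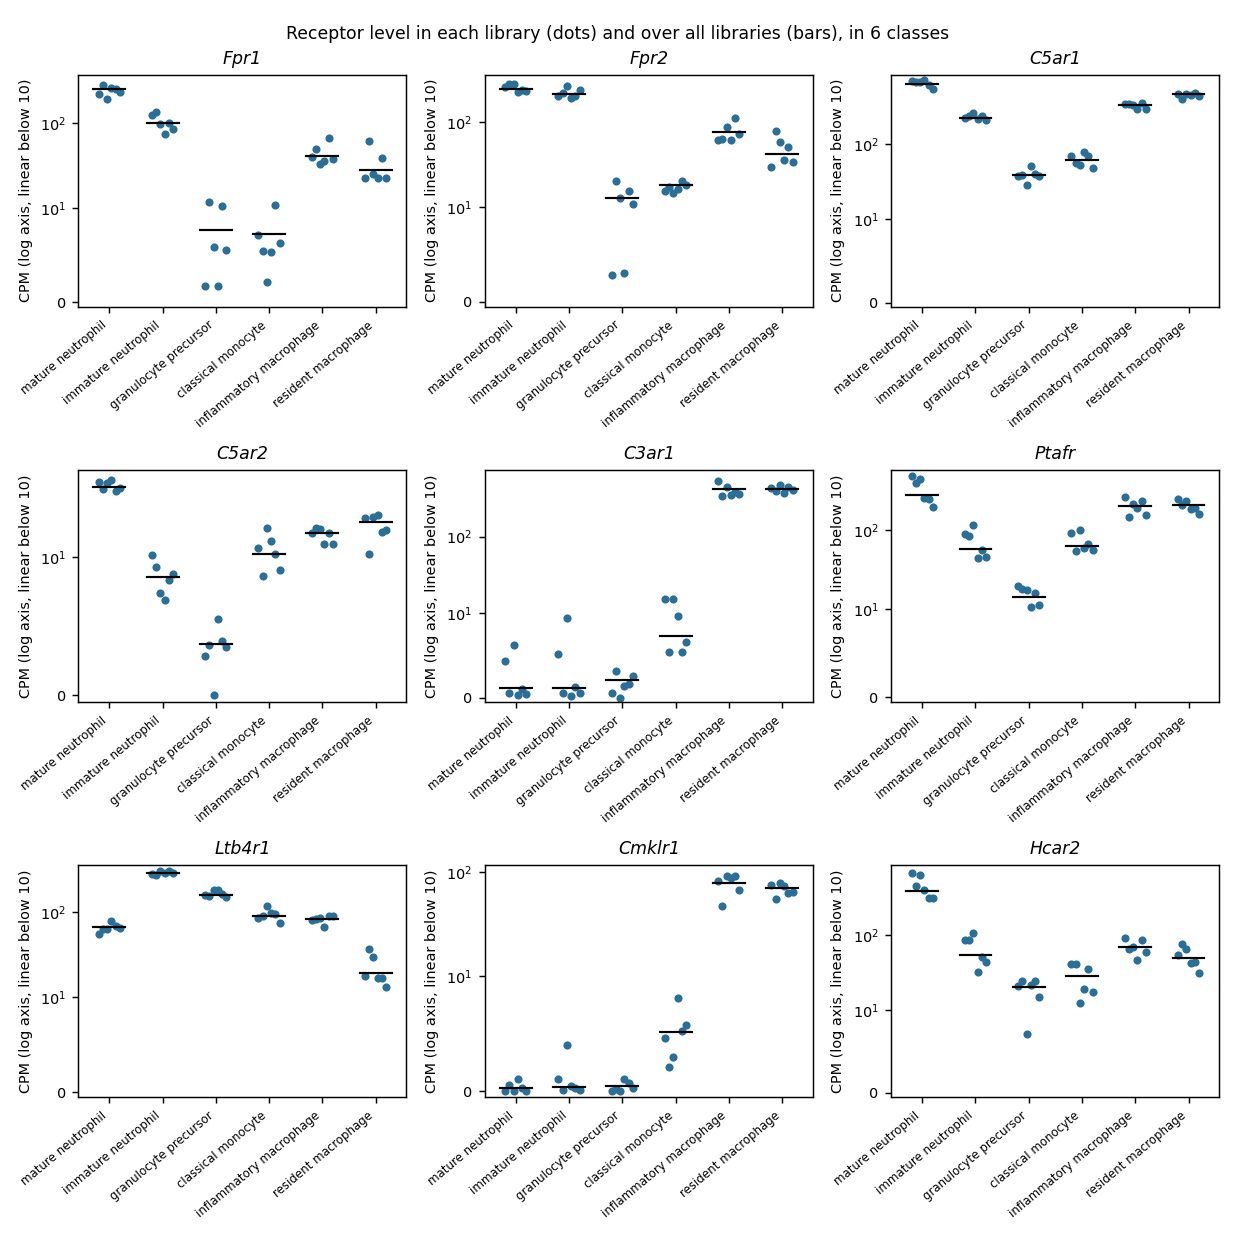
Levels of the 9 receptors in CPM, 1 panel per receptor, in 6 cell classes; dots are the 6 libraries of unknown treatment, bars the level pooled over them, and the axis is logarithmic, linear below 10 CPM. Hcar2 and Ptafr spread most among the libraries of mature neutrophil-like cells, from 313 to 686 and from 196 to 474 CPM, while Ltb4r1 stayed within 269 to 301 CPM in immature neutrophil-like cells.

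To set these differences against all genes, a gene was counted as higher in a class when all 6 of its libraries lay above all 6 of the other class, among 12556 genes. No test was run, because the libraries are of unknown treatment. Between mature and immature neutrophil-like cells, 5 of the 9 receptors were higher in the mature class (Fpr1, C5ar1, C5ar2, Ptafr and Hcar2), where 14.9% of all genes were, and Ltb4r1 was higher in the immature class, where 28.3% of all genes were. Against classical monocyte-like cells, 6 receptors were higher in mature neutrophil-like cells, where 11.6% of all genes were. The 6 were the 5 named above and Fpr2, with a pooled fold of 34.8 for Fpr1, 13.8 for Hcar2, 13.2 for Fpr2, 10.3 for C5ar1, 4.42 for Ptafr and 3.48 for C5ar2. Cmklr1 was higher in the monocyte class, at 5.13 against 0.32 CPM, where 56.8% of all genes were. With the gate alone, Cmklr1 and Ptafr overlapped and Ltb4r1 was higher in the monocyte class, where 51.7% of all genes were. With that gate 10.5% of all genes were higher in mature neutrophil-like cells. Ltb4r1 also joined Cmklr1 there with a stricter gate, with averaged cells, without the deepest cells and without library 4 or 6, and C3ar1 joined without library 3. Under the settings in which Ltb4r1 or C3ar1 joined Cmklr1, 54.3% to 60.6% of all genes were higher in the monocyte class.

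From classical monocyte-like to inflammatory macrophage-like cells, 7 of the 9 receptors were higher in the macrophage class (Fpr1, Fpr2, C5ar1, C3ar1, Ptafr, Cmklr1 and Hcar2), against 13.5% of all genes, and 0 were higher in the monocyte class, against 18.3%. The pooled fold was 57.5 for C3ar1, 15.5 for Cmklr1, 5.68 for Fpr1, 5.40 for C5ar1, 4.12 for Fpr2, 3.18 for Ptafr and 2.51 for Hcar2. The 7 neutrophil genes made up 5432 CPM in inflammatory macrophage-like and 1524 CPM in classical monocyte-like cells, and their part in the count was not tested. In the 533 and 640 neutrophil gene-free cells, with as few as 31 in a library, 3 receptors remained higher in the macrophage class (C5ar1, C3ar1 and Cmklr1), against 10.1% of all genes. Hcar2 overlapped there, at 17.9 CPM (5.75 to 32.9) in the monocyte and 12.7 CPM (6.81 to 32.2) in the macrophage class. With classes from the gate alone, without the check by clusters, the count was 4 (Fpr1, Fpr2, C5ar1 and C3ar1), against 8.34% of all genes. Hcar2 also overlapped when cells were averaged instead of pooled and when the deepest cells were left out. Between inflammatory and resident macrophage-like cells, Ltb4r1 was higher in the inflammatory class (81.5 against 19.2 CPM), where 5.39% of all genes were, and C5ar1 in the resident class (462 against 332 CPM), where 15.7% of all genes were. Without library 2, Fpr2 joined the first group, where 9.37% of all genes were then higher in the inflammatory class.

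Levels of the formyl peptide receptors in macrophage-like and monocyte-like cells were lower when cells with neutrophil transcripts were left out. In resident macrophage-like cells Fpr1 was at 28.0 CPM in all 1861 cells and at 0.387 CPM in the 1214 neutrophil gene-free cells, and Fpr2 at 41.9 and 2.84 CPM. In inflammatory macrophage-like cells Fpr1 was at 41.0 and 5.51 CPM, and Fpr2 at 75.0 and 30.8 CPM. The neutrophil gene-free Fpr2 level ranged from 1.19 to 83.7 CPM over the libraries, and the fewest such cells in any library were 33. A part of the Fpr2 count of inflammatory macrophage-like cells was thus in cells without any of the 7 neutrophil transcripts. In classical monocyte-like cells Fpr1 was at 7.23 and 0.748 CPM, and Fpr2 at 18.2 and 4.86 CPM. Nonclassical monocyte-like cells had Fpr1 at 58.5 CPM and Fpr2 at 110 CPM. In their 119 neutrophil gene-free cells these were at 8.95 and 30.4 CPM. Plasma cell-like cells, listed with Fpr1 at 45.5 CPM in 52 cells, had none in 23 neutrophil gene-free cells, with an upper 95% limit of 5.72 CPM.

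**Figure D3:**
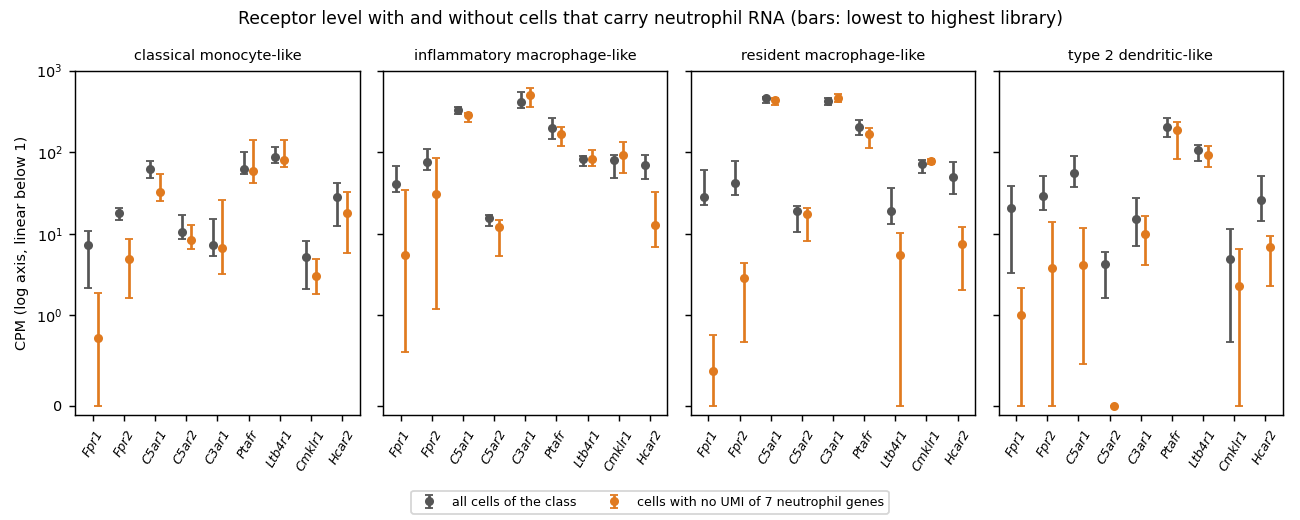
Levels of the 9 receptors in CPM in 4 classes, over all cells of the class and over the cells with no UMI of 7 neutrophil genes; the axis is logarithmic, linear below 1 CPM. Fpr1 in resident macrophage-like cells falls from 28.0 to 0.387 CPM between the 2 sets, while C3ar1 stays at 420.0 and 462 CPM.

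A pair of macrophage clusters differed in the same receptors and in neutrophil genes. Cluster 4 (1968 cells), led by Ccl8 and Arg1, had 79.5 CPM of Fpr1, 131 CPM of Fpr2 and 109 CPM of Hcar2. Cluster 5 (2397 cells), led by the interferon-induced chemokines Cxcl9 and Cxcl10, had 7.28, 36.0 and 16.3 CPM. The 7 neutrophil genes were at 16769 CPM in cluster 4 and 984 CPM in cluster 5, and only 66 cells of cluster 4 were neutrophil gene-free. In those 66 cells Fpr1 was at 12.4 CPM, Fpr2 at 48.9 CPM and Hcar2 at 70.2 CPM, against 4.11, 29.6 and 11.8 CPM in 1772 cells of cluster 5. Fpr1, Fpr2 and Hcar2 were thus all higher in cluster 4 in neutrophil gene-free cells too. The levels in the 66 cells rest on 14, 55 and 79 UMIs and were not counted by library. The part of neutrophil RNA in the difference between the clusters was not tested beyond these values.

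Along the granulocyte stages the receptors appeared in a different order. Stem and progenitor-like, granulocyte precursor-like, cycling immature (1190 cells with at least 3 of 5 cell cycle genes), noncycling immature (3709) and mature neutrophil-like cells were set side by side. Depth moved with the stages, with a median of 28080.5, 11681 and 4741.5 UMIs per cell in the last 3, and its part in the calls of cycling and in the levels was not tested. Ltb4r1 came first, at 9.42, 157, 261, 306 and 66.6 CPM. Fpr2 followed at 2.90, 12.8, 103, 295 and 241 CPM, with overlapping libraries in its first 2 stages (0 to 6.25 and 2.80 to 20.3 CPM). It was highest in noncycling immature cells, where its range of 265 to 327 CPM overlapped the 222 to 277 CPM of mature cells. As a share of UMIs, C5ar1 was higher at each stage than at the one before, at 5.65, 39.4, 149, 284 and 635 CPM. Fpr1 did the same at 1.59, 7.67, 38.7, 146 and 252 CPM. Its libraries overlapped in the first 2 stages (0 to 4.12 and 1.68 to 11.7 CPM) and in the last 2 (108 to 206 and 194 to 286 CPM). Counted per cell, neither was higher in the mature stage. C5ar1 had 14044 UMIs in 3709 noncycling and 15688 in 4744 mature cells, and Fpr1 had 7218 and 6221 UMIs. The other 3 neutrophil receptors were late: C5ar2 stood at 8.83 CPM in noncycling immature and 36.4 CPM in mature cells, Ptafr at 72.5 and 278 CPM, and Hcar2 at 69.4 and 388 CPM. Hcar2 was already counted in stem and progenitor-like cells at 23.9 CPM, and at 20.1 CPM in those free of neutrophil genes. Granulocyte precursor-like cells held 24120 CPM of the 7 neutrophil genes. In their 404 neutrophil gene-free cells Ltb4r1 was at 78.1 CPM, C5ar1 at 4.33, Fpr1 at 0.619 and Fpr2 at 0.0688 CPM (1 UMI). In such stem and progenitor-like cells these were at 6.80, 1.62, 0.324 and 0.486 CPM. Ngp, Camp, Ltf, Ly6g and Mmp8, among the 7 genes, are gating markers of immature neutrophil-like cells. Leaving out cells that carry them therefore also selects among precursor-like cells by stage. These values thus cannot decide whether Fpr2 was higher in precursor-like than in stem and progenitor-like cells. C3ar1 and Cmklr1 stayed at or below pooled levels of 2.03 and 0.63 CPM at all 5 stages, with 29.5 and 12.6 CPM in their highest library of cycling immature cells.

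**Figure D4:**
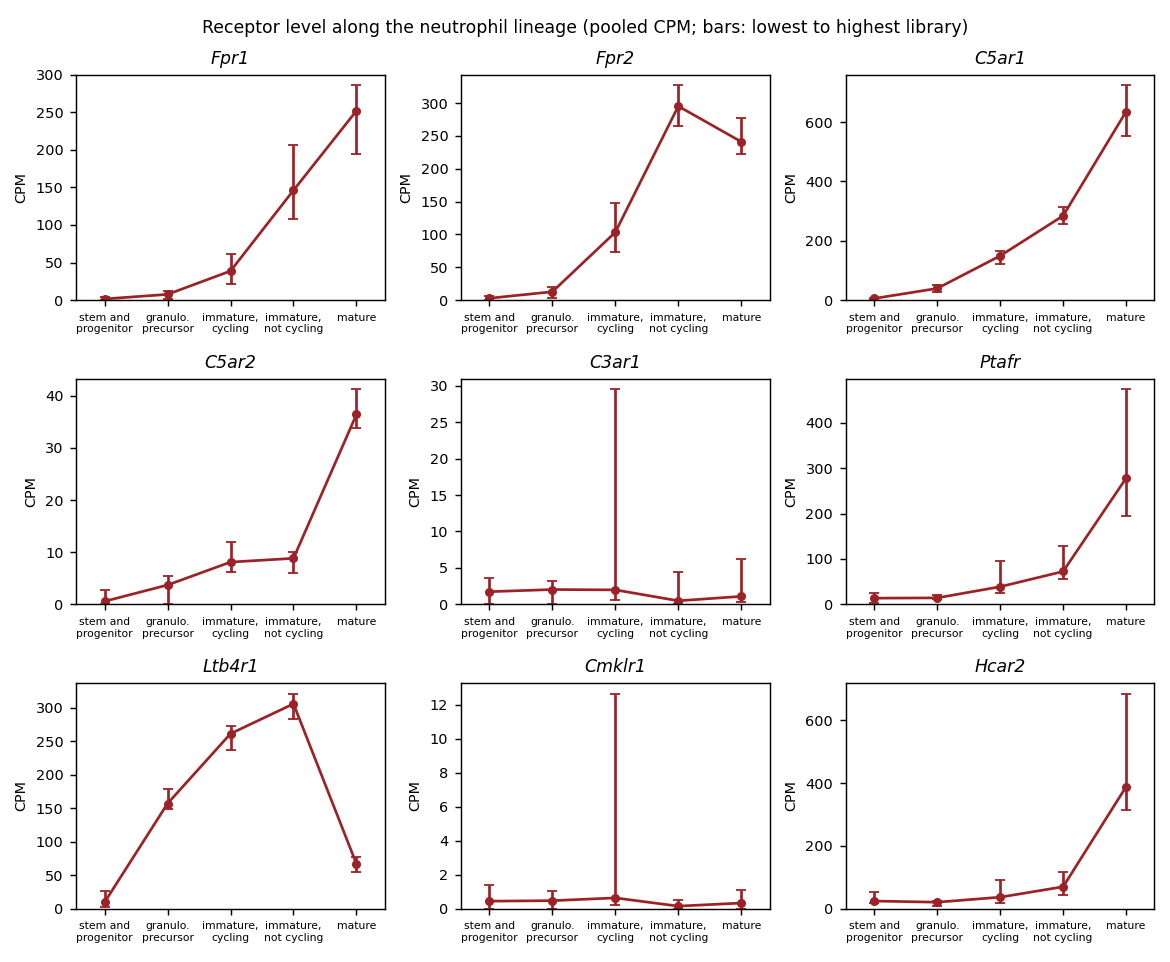
Levels of the 9 receptors in CPM in 5 granulocyte stages, from stem and progenitor-like to mature neutrophil-like cells; points are pooled levels and bars run from the lowest to the highest library. Ltb4r1 is highest at the noncycling immature stage (306 CPM) and lower in mature cells (66.6 CPM), while Hcar2, Ptafr, C5ar1 and C5ar2 are highest in mature cells.

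Secondary granule transcripts (Ngp, Camp, Ltf, Lcn2, Cd177 and Mmp8) were gating markers of immature neutrophil-like cells and together take up much of their RNA. Mmp8 by itself did not part the classes, at 1148 CPM in immature and 1272 CPM in mature neutrophil-like cells. The neutrophil-like cells were therefore also ordered by the share of these 6 transcripts, and the receptors counted against the UMIs of all other genes. The cells were cut into 5 bins of 1928 or 1929. From least to most granule RNA, 100%, 100%, 46.0%, 0% and 0% of their cells were mature neutrophil-like. The order thus largely repeats the gate and is no separate support for the differences between the 2 classes. From the bin with the least granule RNA (median 0.0712% of UMIs) to the bin with the most (11.7%), Hcar2 went from 577 through 353, 147 and 73.0 to 33.9 CPM. Ptafr went from 498 to 42.9 CPM, C5ar1 from 778 to 196 CPM and C5ar2 from 52.5 to 7.59 CPM. Ltb4r1 went the other way, at 53.8, 62.9, 158, 303 and 369 CPM. Fpr1 and Fpr2 had neither order: both were highest in bin 3, at 261 and 315 CPM, with 225 and 188 CPM in bin 1 and 60.3 and 204 CPM in bin 5. Depth moved with this order, with a median of 3885 UMIs per cell in bin 1 and 16718.5 in bin 5, and its part in the levels was not tested.

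Most mature neutrophil-like cells fell into 3 clusters that were built without the receptors, and the receptors differed between them. The values are those of the gated mature cells, 1443 of 1763 cells in cluster 17, 2258 of 2372 in cluster 18 and 1002 of 1643 in cluster 21. Cluster 17, led by Csf1, Irg1 (which makes itaconate), Ptgs2 and Ccrl2, had 659 CPM of Hcar2 (486 to 980.1) and 579 CPM of Ptafr (465 to 782). Cluster 18, led by Gm5483 and Stfa2l1, had 343 CPM of Hcar2 (274 to 566) and 211 CPM of Ptafr (154 to 303). Cluster 21, led by Retnlg, which encodes the secreted protein resistin-like gamma, had 193 CPM of Hcar2 (159 to 268) and 90.3 CPM of Ptafr (57.4 to 146), with as few as 18 cells in a library. The libraries of cluster 17 did not overlap those of cluster 21 in C5ar1 (781 and 473 CPM) and C5ar2 (56.9 and 19.8 CPM) either. The share of all genes whose libraries did not overlap between clusters 17 and 21 was not counted. The differences in Hcar2, Ptafr, C5ar1 and C5ar2 thus have no background beside them, and the clusters themselves were built from expression. Ltb4r1 was at 54.3 CPM in cluster 17 and 88.8 CPM in cluster 21, with overlapping libraries. Fpr1 differed least of the 7 receptors above 10 CPM, at 223, 259.8 and 261 CPM in the 3 clusters.

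The share of mature neutrophil-like cells in cluster 17 was 46.1%, 29.5%, 38.8%, 30.3%, 32.1% and 24.5% in libraries 1 to 6. Libraries 1 and 3, which had the highest levels of Hcar2, also had the largest share of cluster 17. Library 5 had a larger share than library 2, but less Hcar2 (313 against 454 CPM) and less Ptafr (248 against 389 CPM). The part of this share in the levels of the libraries was not tested. Hcar2 and Ptafr still ranged over the libraries within cluster 17, as given above. The numbers of mature cells ranged from 165 in library 3 to 1696 in library 5.

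Outside neutrophils and macrophages, single receptors were found in small populations. A basophil-like cluster of 52 cells, led by Il6, Mcpt8 and Prss34, had 375 CPM of C5ar1, 348 CPM of Hcar2 and 88.4 CPM of C3ar1. Neutrophil genes made up 21098 CPM there. In its 17 neutrophil gene-free cells C5ar1 was at 356 CPM, Hcar2 at 475 CPM and C3ar1 at 205 CPM, and 88.2% of them had a UMI of Hcar2. T cell-like cells split by cluster for Ltb4r1. Cluster 16 (573 cells), led by Icos, Ctla4, Rora and Il23r, genes of activated helper T cells, was at 94.97 CPM, and at 96.98 CPM in neutrophil gene-free cells. The other T cell-like cluster (620 cells) was at 2.48 CPM.

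Individual neutrophils carried several receptors. At 2000 UMIs per cell, a mature neutrophil-like cell had UMIs of 2.32 of the 9 receptors on average, 42.9% had 3 or more, and 5.01% had none. The mean was 1.88 in inflammatory macrophage-like, 1.71 in resident macrophage-like, 1.56 in immature neutrophil-like and 0.0364 in B cell-like cells. Pairs of receptors in mature neutrophil-like cells met about as often as their single shares multiplied. Fpr1 and C5ar1 were found together in 22.6% of cells, with a product of 22.5%, and Fpr1 and Fpr2 in 12.9%, with a product of 11.3%. Ptafr and Hcar2 stood furthest from the product among the pairs found in at least 1% of cells, together in 17.9% of cells with a product of 14.8%. Both were highest in cluster 17.

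Across the 19 classes, the genes most like each receptor in log2(CPM + 1), among 12208 genes, were named by Pearson's r, as a description without a test, because the classes share libraries and some of these genes were gating markers. Fpr1 was closest to Scrg1 (r = 0.981) and the gating marker Retnlg (0.981), and Fpr2 to the fatty acid transporter Slc27a4 (0.977) and the gelatinase Mmp9 (0.973). C5ar1 was closest to Cd300ld (0.958) and Grina (0.955), and C5ar2 to Cd300lb (0.958) and the chemokine receptor Ccr1 (0.955). The genes closest to C3ar1 were those of complement C1q: C1qc (0.940), C1qa (0.920) and C1qb (0.919). Of these, C1qb is a gating marker of inflammatory macrophage-like cells. Hcar2 was closest to the gating marker Csf3r, the receptor of granulocyte colony-stimulating factor (0.965), and to Il15 (0.952). Cmklr1 was closest to the lipid transfer protein Pltp (0.899) and the lysosomal protease Ctsb (0.891). Ptafr and Ltb4r1 had looser matches, Gm14548 (0.890) and the sensor of bacterial cell wall Nod2 (0.842) for Ptafr, and the triglyceride synthase Dgat2 (0.856) and the glycolytic enzyme Aldoa (0.820) for Ltb4r1. Among the members, Fpr1 and Fpr2 were alike at r = 0.963, C5ar1 and C5ar2 at 0.946, and C3ar1 and Cmklr1 at 0.837.

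Of the genes that make, bind or pass on these signals, 36 had been listed with a row in the table: 6 relatives of the receptors, 6 ligands or precursors, 11 enzymes and 13 signalling genes. Of the 36, 7 were highest in mature neutrophil-like, 6 in immature neutrophil-like and 1 in macrophage-like cells, and 22 in other classes. The shares of all 12556 genes were 5.92%, 2.10% and 8.71% for mature neutrophil-like, immature neutrophil-like and macrophage-like cells in turn. Among relatives, Ccrl2, which binds chemerin without signalling, was highest in mature neutrophil-like cells (219 CPM), and Cysltr1, a receptor of cysteinyl leukotrienes, in type 2 innate lymphoid-like cells (193 CPM). Among ligands, Camp, which encodes the cathelicidin that Fpr2 binds, and Anxa1, which encodes annexin A1, were highest in immature neutrophil-like cells at 34082 and 2786 CPM. Camp, counted among the 6 above, is a gating marker of that class, so its place was set by the gate. The precursors of C3a and chemerin, C3 and Rarres2, were highest in fibroblast-like cells at 1111 and 317 CPM, and Hc, the precursor of C5a, reached no more than 5.78 CPM in any class. The leukotriene B4 enzymes did not share the class of their highest level. Alox5ap was highest in mature neutrophil-like cells (1216 CPM) and Alox5 in resident macrophage-like cells (206 CPM). Immature neutrophil-like cells also held both, at 898 and 149 CPM. Lta4h, which makes leukotriene B4, was at 433 CPM in granulocyte precursor-like, 447 CPM in immature and 15.5 CPM in mature neutrophil-like cells. Lta4h and Ltb4r1, the gene of the receptor of its product, were thus both lower in the mature than in the immature class. Lpcat2, which makes platelet-activating factor, and Pla2g7, which degrades it, were both highest in mature neutrophil-like cells at 367 and 376 CPM, the class that led for Ptafr. Among signalling genes, the inhibitory G protein subunit Gnai2 was highest in mature (981 CPM) and the GTPase Rac2 in immature neutrophil-like cells (984 CPM), and Rgs2, which limits G protein signalling, in mast cell-like cells (1180.3 CPM).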

How the data were processed

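Synovial CD45-positive cells of 6 samples (2 PBS, 4 PEPITEM) were profiled with the Chromium 3′ kit. The authors aligned reads to mm10 with Cell Ranger (version 7 in the submitters' processing notes), removed ambient RNA and doublets and filtered cells. They deposited one table of whole UMI counts, not scaled for depth, with separate lists of genes and barcodes. Entries stored as 0 were read as 0. The barcode numbers 1 to 6 were used as libraries of unknown treatment, so no test between treatments was run, and the depth per library is given in the report.

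Cells were gated by the mean z-score of class markers (capped at 5, score at least 0.5, lead at least 0.2, at least 3 markers) and kept where their Leiden cluster (scanpy 1.11.5, 2000 variable genes without the members, 30 components, 15 neighbors, resolution 1, seed 1) was named for the same lineage. The scoring rule was set after the data had been seen. Levels are pooled CPM. Shares were also counted after thinning to 2000 UMIs, leaving out shallower cells. Intervals are exact Poisson or Clopper-Pearson limits at 95%. Genes of at least 1 CPM were compared by ranges over libraries. The rule was tried on simulated data with counting error alone, which cannot show how it behaves where libraries vary. Members, their listed pathway genes and markers were chosen with earlier results of these data known. Named genes were the members, the 5 genes most like each by Pearson's r and the highest listed genes of each role; genes leading clusters were chosen after their values were seen. Python 3.11.15 was used, with matplotlib 3.10.9 for figures and pandas 2.3.3, scipy 1.17.1 and numpy 2.4.6 for tables. Alternatives changed 1 choice at a time.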

Additional observations from a re-analysis of the deposited data

How the results depend on the processing

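From classical monocyte-like to inflammatory macrophage-like cells, the count of receptors whose libraries did not overlap was 7, 4 with the gate alone and 3 in neutrophil gene-free cells. The shares of all genes higher in the macrophage class were 13.5%, 8.34% and 10.1% in turn. The gate alone and the neutrophil gene-free cells were added after the data had been seen, and the cause of the change was not tested. The highest level was in mature neutrophil-like cells for 6 receptors, and for 5 when cells were averaged instead of pooled, where Fpr2 was highest in immature cells. The class of the highest C3ar1 level changed between resident and inflammatory macrophage-like cells, and that of Cmklr1 with classes from clusters. Leaving out 1 library at a time gave counts of 6 to 6 between neutrophil classes. The shares of all genes were then 15.3% to 17.4% (mature higher) and 29.2% to 34.6% (immature higher). Mature neutrophil-like against classical monocyte-like cells gave 7 to 8, with shares of 11.9% to 12.4% and 57.5% to 60.6%. Classical monocyte-like against inflammatory macrophage-like cells gave 7 to 7, with shares of 19.6% to 21.2% and 14.9% to 15.6%. The macrophage classes gave 2 to 3, with shares of 5.82% to 9.37% (inflammatory higher) and 17.0% to 21.0% (resident higher). The count of 3 came without library 2, where both shares were largest. Of 74 levels under the other settings, 69 moved by less than 1 SD between libraries, and the largest ratio was 1.23 (Cmklr1). Leaving out 1 library moved none of 54 levels by more, the largest ratio being 1.11 (Ptafr without library 6). Thinning lowered the shares of positive cells, as given in the report. No paired analysis was possible because the treatments of the libraries are unknown. The classes compared do share libraries. Within every one of the 6 libraries the mature class was higher than the immature class for 5 receptors and lower for 1. The counts were 6 and 3 for mature neutrophil-like against classical monocyte-like cells. They were 0 and 7 for classical monocyte-like against inflammatory macrophage-like, and 1 and 1 for inflammatory against resident macrophage-like cells. The share of all genes was not counted under this rule within libraries, so these counts have no background beside them.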
